A study of Homo sapiens with 4 samples.

Results

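The genes described here are 9 markers of neuroendocrine and neuronal cells, taken by symbol from the 22985 genes named in total RNA sequencing of prostate cancer cell lines: TUBB3, NEFL, NEFM, CHGA, SYP, NCAM1, DDC, REST and RALYL. C4-2, labelled castration-resistant, is a subline of the androgen-dependent LNCaP line, and LNCaP is labelled as primary cancer although it was derived from a lymph node metastasis. Each line was sequenced in 2 libraries after depletion of ribosomal RNA, and both lines were kept in steroid-depleted serum, so that all 4 libraries come from cells deprived of androgen. Each line is a single established line, and the labels do not say whether a line's libraries came from separate cultures, so that the p-values speak only of the spread between these libraries, which may be technical. Groups follow the sample titles. The deposited tables are stored under the name of the other line, and every direction below would be the opposite if the titles, and not those names, were wrong.

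Neuroendocrine cells are rare cells of the prostate epithelium that store peptides in dense-core granules and share many proteins with neurons. Under androgen deprivation some prostate tumours take on neuroendocrine features, and granins, synaptic vesicle proteins and neural adhesion molecules serve as their markers in pathology. REST is a zinc finger repressor that keeps neuronal genes silent outside neurons by binding the RE1 element and recruiting histone deacetylases and demethylases.

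Sense tags on named genes numbered 163126630 and 119080520 in the C4-2 libraries, against 58925680 and 70459588 in the LNCaP libraries. As a share of the tag total by which the authors' RPKM values divide, that was 67.67% and 69.43% in C4-2, against 31.03% and 35.65% in LNCaP. The part of this gap in the results was not tested beyond the other scaling given with the counts of markers. Levels are CPM, sense tags counted per TMM-scaled library size, and changes are log2 fold changes of C4-2 over LNCaP. The prostate-specific antigen gene KLK3 had 6.14 and 6.23 CPM in C4-2 and 533 and 557 in LNCaP. Of 14 luminal prostate markers 10 rose and 4 fell in C4-2, and all were tested. Over all genes tested 40.2% rose and 39.7% fell. The fibroblast markers summed to 8.79 and 9.29 CPM in C4-2 and 9.47 and 11.6 in LNCaP, with COL1A2 at 0 tags in all libraries. Within them ACTA2 rose by 2.38 and COL3A1 by 1.35 on the log2 scale, and COL1A1 fell by 1.48. The immune and endothelial markers summed to 6.05 and 5.65 in C4-2 and 8.29 and 8.22 in LNCaP, with CD3E and MS4A1 at 0.

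The 9 markers did not move as a group. TUBB3, NEFL, RALYL and REST rose in C4-2, DDC fell, SYP and NCAM1 did not pass the test, and NEFM and CHGA were at or near 0 tags in every library. Thus 4 of the 7 markers tested were called higher and 1 lower, where 80.0% of all 15975 genes tested were called, 40.2% higher and 39.7% lower (edgeR quasi-likelihood test, adjusted p under 0.05). Called changes of at least 2-fold were held by 4 of the 7, against 29.8% of all genes tested. For 6 of the 7 the C4-2 and LNCaP levels kept apart, as they did for 89.9% of all genes tested. With so many genes called, these counts are not read as particular to the markers. NCAM1 and RALYL passed the filter on low counts (0.11 CPM in at least 2 libraries) through C4-2, since in LNCaP NCAM1 reached that level in 1 library and RALYL in 0. Scaling to the library totals behind RPKM moved the median change of all genes from -0.011 to 0.992, made 86.8% of calls higher where TMM scaling made 50.3% higher, and raised the number of markers called higher to 6 by adding SYP and NCAM1. In cultured lines, fewer cells with a transcript and less transcript per cell cannot be told apart.

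**Figure D1:**
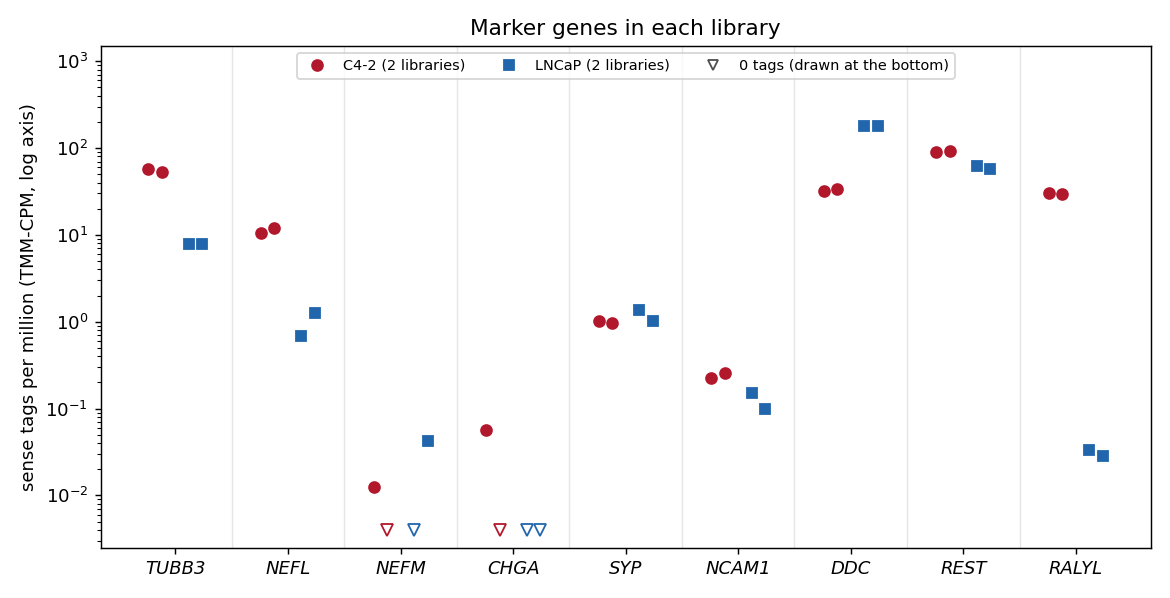
Sense tags as CPM (TMM-scaled, log axis) of the 9 marker genes in each of the 2 C4-2 libraries (circles) and 2 LNCaP libraries (squares), with libraries at 0 tags drawn as triangles at the bottom. TUBB3, NEFL, REST and RALYL lie higher in C4-2, DDC lies lower at 32.2 and 33.4 against 180 and 179, and NEFM and CHGA lie at or near 0 in all libraries.

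Since REST is among the markers and several others are its known targets, the sequence around each start site was searched for a 21-base form of the RE1 element on both strands within 5 kb. The search allowed up to 3 mismatches at the 18 fixed positions of the motif and used GRCh37, the build of the deposited coordinates. The best match near CHGA, SYP and TUBB3 is shown because these markers carry the closest matches among the 9 and differ in how they behaved. Capitals mark bases that match the motif's fixed letters, so that those of CHGA spell out all 18 of them, and each sequence reads 5′ to 3′ on its own strand.
CHGA: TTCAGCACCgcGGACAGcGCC
SYP: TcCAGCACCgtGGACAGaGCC
TUBB3: gTCAGCACCaaGGACAGcGCC
The CHGA match (chr14:93389868-93389888, plus strand) had 0 mismatches and lies in an intron 423 bases after the start site. The SYP match (chrX:49056581-49056601, minus strand) had 1 mismatch and lies in an intron 60 bases after the start site. The TUBB3 match (chr16:89992912-89992932, plus strand) also had 1 mismatch and lies in an intron 3225 bases after the start site. A further match near TUBB3 had 3 mismatches, and NEFM had 1 match with 2 mismatches upstream of its start site, at -934 bases. No match was found in these windows for NEFL, NCAM1, DDC, REST or RALYL. Of all 22985 windows, 0.074% held a match without mismatch, 0.348% a match with at most 1 and 3.55% a match with at most 3. A match describes the letters only, and binding was not measured.

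REST itself rose in C4-2. Its transcript (hg19 chromosome 4, 57774042 to 57802010, plus strand) had 14659 and 10802 sense tags in C4-2, against 3768 and 4080 in LNCaP. That is 91.2 and 91.5 CPM in C4-2 and 62.7 and 57.6 in LNCaP, without overlap (log2 fold change 0.60 with SE 0.050, edgeR adjusted p = 9.93e-06). Among all genes tested 23.8% had a higher log2 fold change. The other deposited REST transcript, which starts at another first exon, moved alike, with a log2 ratio of mean levels of 0.60. Of the 22 genes for REST, its corepressors and its regulators, 16 rose, 3 fell and 3 did not pass (median 0.49, against -0.011 over all genes tested). Over all genes tested 40.2% rose and 39.7% fell. With library totals 19 of the 22 were called higher and 0 lower (median 1.49, against 0.992 over all genes tested). The deacetylase gene HDAC2 rose by 1.10, the methyltransferase gene EHMT1 by 0.86 and the Polycomb-like gene L3MBTL2 by 1.09 on the log2 scale. ZNF217, which encodes a zinc finger protein found with the corepressor CoREST, fell by 0.74, but stood at 0.27 with library totals and did not pass (edgeR adjusted p = 0.0511). The other two that fell were PHF21A (-0.75) and USP15 (-0.62), which also turned, to 0.26 and 0.39, with library totals.

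Genes known as REST targets, a list of 41 that includes SYP, CHGA and TUBB3, were mostly too low to test. Of the 18 tested, 9 rose, 5 fell and 4 did not pass, where 40.2% of all genes tested rose and 39.7% fell. With library totals 12 of the 18 were called higher and 1 lower. The median was 0.34, against -0.011 over all genes tested, and with library totals 1.34, against 0.992. STMN2, CHGB, GLRA1, NPPA, CALB1 and DRD3 had 0 tags in all 4 libraries. STMN3, which encodes a stathmin that binds tubulin, rose by 2.10, and CPLX1, which encodes a complexin that binds SNARE proteins, rose by 2.13 on the log2 scale. SYT4, which encodes a synaptotagmin of vesicles, fell to 37.5 and 39.3 CPM in C4-2, against 630 and 603 in LNCaP (log2 fold change -4.01 with SE 0.051, edgeR adjusted p = 1.66e-09). STX1A, which encodes a plasma membrane SNARE, stood at -0.97, and at 0.04 with library totals.

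TUBB3, which encodes the beta-tubulin isotype typical of neurons, rose 7-fold in C4-2. It had 9110 and 6297 sense tags in C4-2 (56.7 and 53.4 CPM), against 476 and 553 in LNCaP (7.92 and 7.81). Both C4-2 libraries lay far above both LNCaP libraries, and the log2 fold change of 2.81 had an SE of 0.063 (edgeR adjusted p = 1.38e-08). It was exceeded by 1.32% of genes tested. The gene lies on chromosome 16 (hg19, 89989687 to 90002505, plus strand), and the other deposited transcript, which starts upstream, gave a log2 ratio of 2.78. The annotation holds a readthrough gene that joins TUBB3 to the melanocortin receptor gene MC1R just upstream, and it holds 79.6% of the 50-base words of the TUBB3 mRNA, so tags of the readthrough cannot be told from those of TUBB3. MC1R itself, looked up after the TUBB3 values were seen, fell in C4-2, with 2.60 and 2.24 CPM there and 7.84 and 7.44 in LNCaP (log2 fold change -1.65 with SE 0.11, edgeR adjusted p = 2.99e-06).

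Other beta-tubulin genes are close copies, and 7.93% of the 50-base words of the TUBB3 mRNA also occur in transcripts of genes other than the readthrough, most of them in TUBB2A and TUBB2B. Of 9 beta-tubulin genes 7 rose, TUBB6 fell and TUBB1 was too low to test (median 1.54). Over all genes tested 40.2% rose and 39.7% fell. Being close copies, the beta-tubulin genes are not separate observations. The broadly used isotype gene TUBB had 961 and 914 CPM in C4-2 and 432 and 426 in LNCaP, and TUBB4B had 465 and 427 in C4-2 and 125 and 133 in LNCaP. Their log2 fold changes were 1.13 and 1.79, and that of TUBB4A was 2.12. TUBB6 fell to 0.492 and 0.475 in C4-2, against 4.24 and 5.16 in LNCaP (-3.28).

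NEFL, the light chain of neurofilaments, the intermediate filaments of axons, rose 11.3-fold. It had 1676 and 1406 sense tags in C4-2 (10.4 and 11.9 CPM), against 41 and 89 in LNCaP (0.682 and 1.26). As a ratio, the LNCaP libraries differed from each other by more than the C4-2 libraries did, yet there was no overlap between lines (log2 fold change 3.50 with SE 0.20, edgeR adjusted p = 1.19e-06). NEFM, the medium chain, lies next to NEFL on chromosome 8 and did not follow it. Its sense tags numbered 2 and 0 in C4-2 and 0 and 3 in LNCaP, and the ratio of the summed tags scaled by library size, C4-2 over LNCaP, was 0.313 with a counting interval of 0.0262 to 2.73. No difference in NEFM was detectable at this depth. The counting interval of a library with 0 tags reaches 0.0313 CPM in C4-2 replicate 2 and 0.0614 in LNCaP replicate 1.

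Of 7 neuronal intermediate filament genes, only NEFL rose and only NES, the nestin gene of neural progenitors, fell, and 3 of the remaining 5 were too low to test (median of those tested -0.08). Among all genes tested 40.2% rose and 39.7% fell, with a median of -0.011, or 0.992 with library totals. PRPH, a filament gene of peripheral neurons, had a log2 fold change of 0.00 ± 0.26, and SYNM, the synemin gene, had -0.16 ± 0.092. With library totals PRPH stood at 1.02 and SYNM at 0.84, both past the threshold and both higher. Without LNCaP replicate 1 a second gene of the list was called lower.

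RALYL, which encodes an RNA-binding protein related to RALY and hnRNP C and is known mainly from brain, had the largest change of the 9. It had 4826 and 3449 sense tags in C4-2 (30 and 29.2 CPM) and 2 in each LNCaP library (0.0333 and 0.0283). The log2 fold change of 9.86 had an SE of 0.15 (edgeR adjusted p = 2.94e-09), and the ratio of summed tags scaled by library size was 972, with a counting interval of 379 to 3570. Only 0.0313% of genes tested had a higher log2 fold change. RALYL passed the filter on low counts through C4-2 alone and was chosen with earlier results known. Its p-value and rank are therefore not read as support. The 4 deposited transcripts shared the pattern: the other 3 had from 22.4 to 23.0 CPM in C4-2, with 2 tags in LNCaP replicate 1 and 0 in LNCaP replicate 2. Its relatives moved little. RALY rose by 0.46 on the log2 scale, while HNRNPC fell by 0.55, a direction that turned to 0.45 with library totals. HNRNPCL1 and HNRNPCL2 are copies of HNRNPC whose tags may be shared with it.

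**Figure D2:**
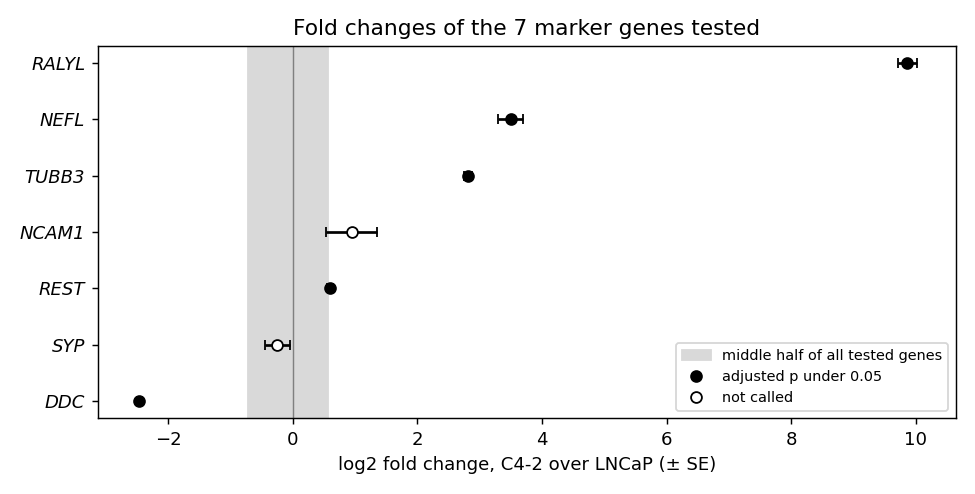
Log2 fold change of C4-2 over LNCaP with its standard error for the 7 marker genes tested (edgeR, 2 libraries per line), the grey band reaching from the lower to the upper quartile of all 15975 genes tested, -0.723 to 0.574. RALYL, NEFL and TUBB3 lie far above the band, REST (0.60) and NCAM1 (0.95) lie above its edge, DDC lies below it, and NCAM1 and SYP (open circles) were not called.

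The secretory and synaptic markers stayed low. CHGA encodes chromogranin A, the main protein of dense-core granules and a standard marker of neuroendocrine tumours. Its sense tags numbered 9 and 0 in C4-2 and 0 and 0 in LNCaP, so that a single library held them all. The 9 tags make 0.0560 CPM, with a counting interval of 0.0256 to 0.106, and the counting interval of the ratio of both lines, C4-2 over LNCaP, starts at 0.927, so no difference was detectable at this depth. On the opposite strand CHGA had 3 and 1 tags in C4-2 and 10 and 8 in LNCaP, more than the sense strand in every library but C4-2 replicate 1. SYP encodes synaptophysin, a membrane protein of synaptic vesicles. It had 164 and 114 sense tags in C4-2 (1.02 and 0.966 CPM), against 82 and 72 in LNCaP (1.36 and 1.02). The lines overlapped, and the log2 fold change of -0.25 (SE 0.20) did not pass (edgeR adjusted p = 0.284). With library totals it was 0.76 and passed (edgeR adjusted p = 0.00211).

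Genes of granules and peptide hormones, a list of 22, had 9 tested, of which 4 rose and 5 fell (median -0.35, which was 0.66 with library totals). Among all genes tested 40.2% rose and 39.7% fell, with a median of -0.011, or 0.992 with library totals. Alongside CHGA at 9 tags, CHGB, GRP, TAC1, VIP and SST had 0 tags in all libraries. PCSK1N, a granin-like inhibitor of prohormone convertase, rose to 5.59 and 5.78 CPM in C4-2, against 0.466 and 0.975 in LNCaP (log2 fold change 2.95). CPE, a carboxypeptidase that trims prohormones, rose by 0.49. CALCA, the calcitonin gene, had 0 tags in C4-2 and 45 and 61 in LNCaP. That is 75.2-fold lower if the C4-2 libraries are set to a floor of 3 tags. The galanin gene GAL fell by 0.50, and stood at 0.50 with library totals. Of 29 synaptic vesicle genes 22 were tested, 9 rose, 8 fell and 5 did not pass (median -0.24, which was 0.77 with library totals). Relatives of synaptophysin split, as SYNGR1 rose by 1.78 and SYNGR3 fell by 2.04 on the log2 scale.

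NCAM1, the neural cell adhesion molecule CD56 used as a surface marker of neuroendocrine tumours, was barely detected. It had 36 and 30 sense tags in C4-2 (0.224 and 0.254 CPM), against 9 and 7 in LNCaP (0.150 and 0.0989). Both C4-2 libraries lay above both LNCaP libraries, but the log2 fold change of 0.95 (SE 0.41) did not pass (edgeR adjusted p = 0.0615). It passed with library totals (1.95, edgeR adjusted p = 0.000133) and with the tags of both strands summed (1.45, edgeR adjusted p = 0.0056). The second of these settings adds opposite-strand tags and so does not measure the sense transcript alone. NCAM1 passed the filter on low counts through C4-2, with 1 LNCaP library at that level, so its p-values are not read as support. Opposite-strand tags numbered 81 and 54 in C4-2, against 14 and 5 in LNCaP. They exceeded the sense tags in both C4-2 libraries and in LNCaP replicate 1, but not in LNCaP replicate 2. They appeared only in the 3 deposited transcripts that end at position 113149158 of chromosome 11 (hg19), and the 2 that end at 113135919 had 0 in all libraries. Those shorter transcripts had 17 and 17 sense tags in C4-2 and 10 and 2 in LNCaP. Its paralogue NCAM2 was far higher, with 430 and 444 CPM in C4-2 and 351 and 332 in LNCaP, a log2 fold change of 0.36. Of 17 neural adhesion genes 14 were tested, 2 rose, 6 fell and 6 did not pass (median -0.60, which was 0.40 with library totals). Among all genes tested 40.2% rose and 39.7% fell, with a median of -0.011, or 0.992 with library totals. Of these adhesion genes 1 was called higher with DESeq2 and with the stricter filter. With library totals 6 were called higher and 1 lower. The counts also moved when single libraries were left out. The synaptic adhesion gene NLGN1 fell by 1.42 and ALCAM by 0.45, and ALCAM stood at 0.56 with library totals.

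DDC, the aromatic amino acid decarboxylase that makes dopamine and serotonin, was the only marker of the 7 tested that fell. It had 5173 and 3937 sense tags in C4-2 (32.2 and 33.4 CPM), against 10842 and 12679 in LNCaP (180 and 179). The libraries of a line lay close together, and the log2 fold change of -2.46 had an SE of 0.042 (edgeR adjusted p = 4.09e-09). DDC stayed lower with library totals (-1.45). Among all genes tested 94.4% had a higher log2 fold change. The gene lies on the minus strand of chromosome 7, and 6 of its 7 deposited transcripts end at 50526134 (hg19) with nearly the same tags. The remaining transcript, NM_001242890, ends at 50560345 and so lacks the exons beyond. It had 110 and 50 sense tags in C4-2 (0.685 and 0.424 CPM), against 1178 and 1383 in LNCaP (19.6 and 19.5). Its tag level was 35.3-fold lower in C4-2, where the full transcript NM_001082971 was 5.48-fold lower, and this difference between transcripts was not tested. The short transcript overlaps the others in position, so its tags are not read as the level of a separate isoform. On the opposite strand it had 42 and 37 tags in C4-2 and 80 and 121 in LNCaP. The full transcript had 19 and 9 there in C4-2 and 19 and 32 in LNCaP. Per kb of exon the short transcript had 0.399 ± 0.13 CPM in C4-2 and 14.1 ± 0.035 in LNCaP, and the full transcript had 15.8 ± 0.40 in C4-2 and 86.8 ± 0.46 in LNCaP (SD, n = 2 each). If each transcript's tags are those on its own exons, the tags of both lines lay more densely on exons that the short transcript lacks.

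**Figure D3:**
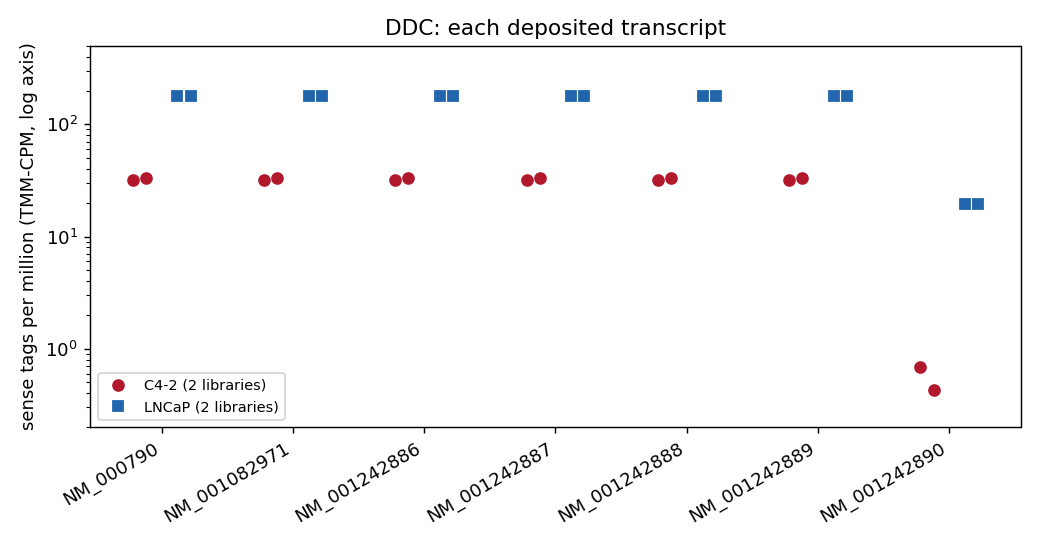
Sense tags as CPM (TMM-scaled, log axis) of the 7 deposited DDC transcripts in the 2 C4-2 libraries (circles) and the 2 LNCaP libraries (squares). The transcript that ends early, NM_001242890, lies at 0.685 and 0.424 in C4-2 and at 19.6 and 19.5 in LNCaP, and the other 6 lie near 33 and 180.

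The rest of the amine pathway was incomplete. Of 18 genes 10 were tested, 4 rose, 4 fell and 2 did not pass (median -0.18, which was 0.83 with library totals). Among all genes tested 40.2% rose and 39.7% fell, with a median of -0.011, or 0.992 with library totals. The hydroxylase genes TH and TPH2, which act before DDC, and DBH and PNMT, which act after it, had 0 tags in all libraries, as did the vesicular transporter gene SLC18A1. TPH1, the other tryptophan hydroxylase gene, had 6 and 17 tags in C4-2 and 10 and 15 in LNCaP and did not pass (log2 fold change -1.16, edgeR adjusted p = 0.122). SPR, an enzyme of the tetrahydrobiopterin cofactor, rose by 1.84 on the log2 scale. PTS, another cofactor enzyme, fell by 1.17, and with library totals did not pass (-0.16, edgeR adjusted p = 0.197).

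Compared per kb of exon, the order of the markers differed between the lines. In C4-2, TUBB3 led with 31.1 ± 1.3 CPM per kb, followed by DDC with 15.8 ± 0.40, REST with 12.5 ± 0.031, RALYL with 10.2 ± 0.20, NEFL with 3.12 ± 0.29, SYP with 0.409 ± 0.016 and NCAM1 with 0.0399 ± 0.0036 (SD, n = 2). In LNCaP, DDC led with 86.8 ± 0.46, followed by REST with 8.20 ± 0.49, TUBB3 with 4.45 ± 0.044, SYP with 0.490 ± 0.10, NEFL with 0.270 ± 0.11, NCAM1 with 0.0207 ± 0.0060 and RALYL with 0.0106 ± 0.0012. The counting intervals of NCAM1 and RALYL overlapped in LNCaP, where they rest on 7 or 9 and on 2 tags per library.

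Among regulators of neuroendocrine differentiation, several lineage factors were at or near 0 in both lines and others were well expressed. INSM1 had 0 CPM in C4-2 and 0.0166 and 0 in LNCaP, and NEUROD1 and SOX2 had 0 tags in all 4 libraries, while the pioneer factor gene FOXA1 had 199 CPM in each C4-2 library and 179 and 165 in LNCaP. Of 28 such genes 15 were tested, 5 rose, 8 fell and 2 did not pass (median -0.15, which was 0.86 with library totals). PEG10, a retrotransposon-derived gene, rose by 2.38, and HES1, a Notch target that represses neuronal differentiation, fell by 2.13. The mitotic kinase gene AURKA fell by 1.46. Among 25 other neuronal markers 16 were tested, 10 rose, 3 fell and 3 did not pass (median 0.42). Over all genes tested 40.2% rose and 39.7% fell. CAMK2B, a calcium-dependent kinase of synapses, rose to 33.3 and 30.9 CPM in C4-2, against 1.86 and 2.10 in LNCaP (log2 fold change 4.01). ENO2, the neuron-specific enolase gene, rose by 1.84 on the log2 scale. Markers of mature neurons differed in level. RBFOX3, which encodes a nuclear protein of mature neurons, had 0.0498 and 0.0170 CPM in C4-2 and 0.0333 and 0 in LNCaP. The microtubule-associated protein genes were higher in level, with MAP2 at 13.5 and 14.3 in C4-2 and 27.2 and 22.6 in LNCaP, and MAPT at 14.4 and 13.9 in C4-2 and 8.30 and 8.05 in LNCaP. Their log2 fold changes were -0.84 for MAP2, which did not pass with library totals (0.17), and 0.79 for MAPT. Of the 11 neuron and glia markers 4 were tested, 1 rose and 2 fell, among them GAD1, which makes the transmitter GABA (log2 fold change -1.70). The one that rose, the myelin gene MBP (log2 fold change 0.20), was not called without C4-2 replicate 1.

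**Figure D4:**
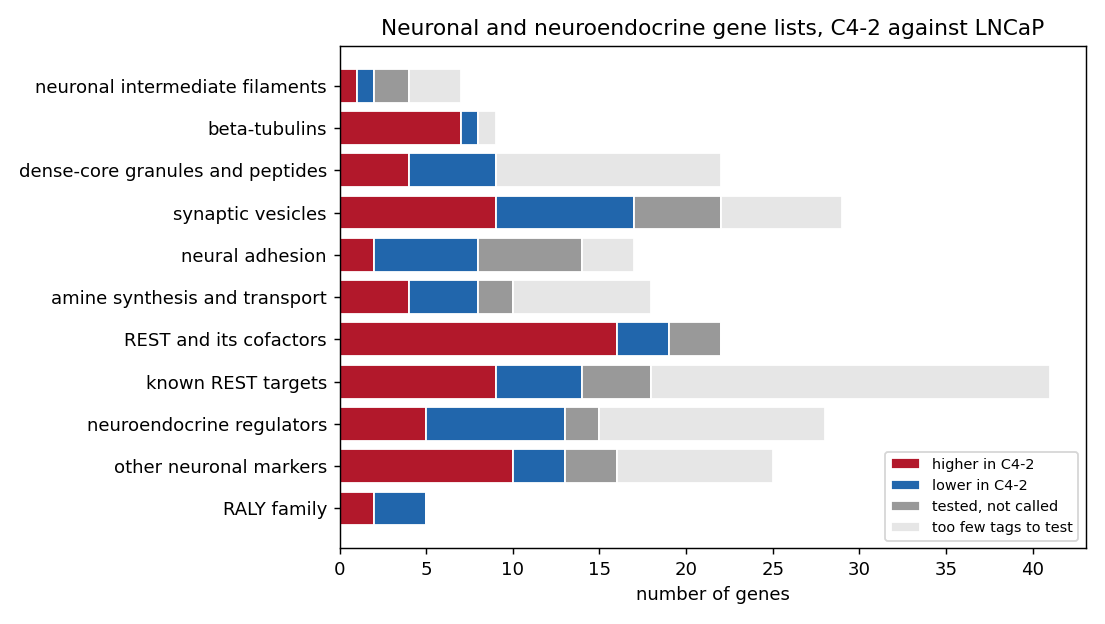
Number of genes higher in C4-2, lower in C4-2, tested but not called, and too low to test in each of 11 lists of neuronal and neuroendocrine genes (edgeR, adjusted p under 0.05). REST and its cofactors (16 of 22) and the beta-tubulins (7 of 9) hold mostly genes that were higher, and 23 of 41 known REST targets were too low to test. Of all genes tested 40.2% were higher and 39.7% lower.

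The genes whose profiles over the 4 libraries lay nearest to a marker were found by Euclidean distance between centred log2 levels, a measure that in 4 libraries mostly reflects the fold change. For TUBB3 they were the spectrin gene SPTB (distance 0.062) and the phosphoglucomutase gene PGM1 (0.069). For NEFL they were TMPRSS6 and MAP7D2 (both 0.31). For DDC they were CDKN3 (0.031) and SNHG3 (0.032), and for REST they were AP2B1 (0.014) and CHD1L (0.015).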

How the data were processed

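Alignment used Bowtie and TopHat2 2.0.6 on hg19 (GRCh37), per the submitters' processing notes. Per the file headers, the authors deposited a tag count for each strand of 41351 RefSeq transcript entries. They also deposited RPKM values, which the files show to be scaled by exon length and by 1 total per library. The counting tool is not given in the sources used here. The kit is not stated to keep strand, yet 1.31% and 1.29% of tags in C4-2 and 1.99% and 1.83% in LNCaP lay on the opposite strand. Sense tags were used.

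A RefSeq table (GRCh38.p14, names only) named 38974 of 40304 accessions. Entries without a symbol held 2.06% to 2.15% of sense tags and were left out. Of each symbol's transcripts, the one with the highest mean share of tags was kept. Counts were tested with edgeR 4.0.16 (R 4.3.3), with filterByExpr, TMM scaling, cell line as the only term and Benjamini-Hochberg adjustment over all genes; calls have an adjusted p under 0.05. The procedure was tested on simulated data. Levels are TMM-scaled CPM, and each SE is the absolute log2 fold change over the square root of F. Intervals for low counts (95%) and floors of 3 tags cover counting error only. The other scaling, called library totals, used the totals behind RPKM. Settings tried were DESeq2 1.42.0, that scaling, DESeq2 size factors, other filters, other transcript choices, both strands summed, a replicate block and leaving out each library. RE1 matches and shared words came from GRCh37 and the GENCODE transcripts mapped to it.

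Replicates were not copies, since their chi-square over its degrees of freedom was 12.7 in C4-2 and 25.6 in LNCaP. The markers and lists were chosen with earlier results of these data known. Named were the 9 markers, up to 4 genes of each list by smallest adjusted p, KLK3 and the 2 nearest profiles. Some genes that meet this rule are not reported here. MC1R, NES, TUBB1, FOXA1, MAP2, MAPT, PHF21A, USP15, TPH1 and genes at or near 0 were added after their values were seen.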

Additional observations from a re-analysis of the deposited data

Results flagged for a closer look

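Tags on the strand opposite to the transcript were not used for the comparisons, and 4 markers had more of them in both C4-2 libraries than in either LNCaP library with a counting interval of the scaled ratio that lies above 1. NEFL had 44 and 25 such tags in C4-2 and 2 and 0 in LNCaP, a ratio of scaled sums of 16.2 with a counting interval of 4.32 to 136. An annotated antisense RNA covers 19.8% of its exon bases. NCAM1 had 81 and 54 in C4-2 and 14 and 5 in LNCaP, a ratio of 3.34 (2.06 to 5.71). Annotated RNAs on the opposite strand cover part of its exon bases too: NCAM1-AS1 4.83%, TTC12-DT 1.47% and a further one 1.59%. REST had 35 and 23 in C4-2 and 6 in each LNCaP library, a ratio of 2.27 (1.21 to 4.64). The gene NOA1 on the opposite strand covers 0.861% of the REST exon bases. These shares are of all annotated exon bases of a gene, for NCAM1 12693, where its counted transcript has 5.99 kb. Whether the overlaps lie on the counted exons was not tested. RALYL had 72 and 56 in C4-2 and 0 in LNCaP, which is 20-fold higher if the LNCaP libraries are set to a floor of 3 tags. The counting interval of the ratio starts at 16.1. TUBB3 was higher in both C4-2 libraries too, with 12 and 7 in C4-2 and 2 and 1 in LNCaP, but its interval includes 1 (ratio 2.97, 0.876 to 15.7). The rule took rises only, and other markers went the other way when scaled by library size. The ratio was 0.104 (0.0257 to 0.317) for CHGA, 0.258 (0.157 to 0.417) for DDC and 0.429 (0.226 to 0.81) for SYP. The share of all genes that would meet this rule was not computed, so the count of 4 is not read as particular to the markers. On the sense strand the levels of the lines kept apart for 89.9% of all genes tested. The sense ratios of these 4 markers also lay above 1, at 11.1 for NEFL, 1.94 for NCAM1, 1.52 for REST and 972 for RALYL. In NEFL, REST and RALYL these tags were few beside the sense tags, and in NCAM1 they outnumbered them in C4-2 and in LNCaP replicate 1. In C4-2 they made 2.56% and 1.75% of the tags of NEFL, 0.238% and 0.212% of REST and 1.47% and 1.6% of RALYL. In LNCaP they made 4.65% and 0% of NEFL, 0.159% and 0.147% of REST and 0% of RALYL. Over all named genes the opposite strand held 1.31% and 1.29% in C4-2. What these tags stand for was not tested.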

How the results depend on the processing

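With library totals, 11572 genes were called higher and 1757 lower, against 6429 and 6346 with TMM. SYP then stood at 0.76 and NCAM1 at 1.95 on the log2 scale, both called, and NCAM1 was also called with both strands summed (1.45). As NCAM1 passed the filter on low counts through C4-2, its calls are not read as support. In every other setting run, 4 markers were called higher (TUBB3, NEFL, RALYL and REST) and 1 lower (DDC). NCAM1 had no value under the stricter filter. With 1 library left out at a time, genes called higher ranged from 5962 to 6574 and lower from 5683 to 6196. With the replicate block, 6260 were called higher and 6141 lower and no marker's call changed. Same-numbered libraries showed a correlation of deviations of -0.032. With 2 libraries per line, this cannot show whether libraries of the same number shared a preparation or a run. Depth limits NEFM and CHGA: without the filter on low counts neither passed (edgeR adjusted p = 0.559 for NEFM and 0.202 for CHGA).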
